A study of Mus musculus with 12 samples.

Results

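The primary (azurophilic) granule genes were followed in c-Kit+ mouse acute myeloid leukemia (AML) cells exposed to CCS1477, an inhibitor that binds the bromodomains of p300 and CBP. The 8 genes were chosen by name, as the rows for Mpo, Elane, Prtn3, Ctsg, Ms4a3, Prss57, Srgn and Lyz2 among the 15651 Ensembl genes in the expression table, and all 8 were present. Leukemic splenocytes came from 3 moribund mice of each genotype and were enriched with CD117 microbeads. D/F AML carried floxed Dnmt3a (Dnmt3a fl/fl), Flt3 ITD/ITD and Mx1-Cre, and T/F AML carried floxed Tet2 (Tet2 fl/fl) with the same Flt3 ITD/ITD and Mx1-Cre alleles. Mx1-Cre is an interferon-responsive transgene active in blood cells. The mice received no pIpC, the usual inducer, so deletion was spontaneous and could affect 1 or both floxed alleles. Cells of each mouse were divided between CCS1477 and its vehicle DMSO for 6 h, in medium with SCF, IL-6 and IL-3 for all groups, which gave 12 libraries in 4 groups of 3. D/F cells received 4 µM and T/F cells 2 µM, so genotype and dose cannot be told apart in a comparison of responses or of treated cells. The age of these mice is not given in the sources used here.

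Primary granules are made during the promyelocyte stage of neutrophil development, when their proteins are synthesized in bulk and packed into lysosome-like vesicles. Transcription of their genes is known to depend on C/EBP, PU.1 (an ETS factor), RUNX1 and MYB, and it declines as the cells mature and begin to make the later granule types. Mpo encodes myeloperoxidase, a haem enzyme that makes hypochlorous acid. Elane, Prtn3 and Ctsg encode the serine proteases neutrophil elastase, proteinase 3 and cathepsin G, and Prss57 encodes a related granule protease. Srgn encodes serglycin, the proteoglycan core on which granule proteases are stored. Lyz2 encodes lysozyme of myeloid cells, and Ms4a3 encodes a membrane protein of granulocyte and monocyte progenitors.

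The promoters of 5 genes with RefSeq entries, covering the oxidase, the 3 classical serine proteases and Ms4a3, are printed because their windows hold the ETS type letters described next. Each sequence is the 250 bases before the RefSeq start (GRCm38.p6), written 5′ to 3′ on the gene's own strand, with capitals for matches on either strand to GAGGAA (ETS type), TGTGGT (RUNX type) or TTNNGNAA (C/EBP type). The printed windows of Mpo, Elane and Prtn3 overlap their GENCODE gene models, which begin upstream of the RefSeq start.
Mpo, chr11:87793534-87793783, plus strand: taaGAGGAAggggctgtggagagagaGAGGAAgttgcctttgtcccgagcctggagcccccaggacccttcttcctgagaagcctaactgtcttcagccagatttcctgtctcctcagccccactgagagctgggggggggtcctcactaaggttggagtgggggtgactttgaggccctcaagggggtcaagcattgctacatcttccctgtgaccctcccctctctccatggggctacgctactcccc
Elane, chr10:79886062-79886311, plus strand: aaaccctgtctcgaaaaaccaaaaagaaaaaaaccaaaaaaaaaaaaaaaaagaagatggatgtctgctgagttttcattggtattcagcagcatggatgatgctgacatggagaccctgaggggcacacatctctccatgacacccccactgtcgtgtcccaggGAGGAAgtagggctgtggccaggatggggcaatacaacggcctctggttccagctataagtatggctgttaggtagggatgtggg
Prtn3, chr10:79879417-79879666, plus strand: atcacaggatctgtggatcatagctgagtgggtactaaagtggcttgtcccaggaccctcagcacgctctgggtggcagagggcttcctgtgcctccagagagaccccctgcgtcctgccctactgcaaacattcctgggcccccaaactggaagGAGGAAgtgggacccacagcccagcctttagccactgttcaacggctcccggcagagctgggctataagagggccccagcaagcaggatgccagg
Ctsg, chr14:56102575-56102824, minus strand: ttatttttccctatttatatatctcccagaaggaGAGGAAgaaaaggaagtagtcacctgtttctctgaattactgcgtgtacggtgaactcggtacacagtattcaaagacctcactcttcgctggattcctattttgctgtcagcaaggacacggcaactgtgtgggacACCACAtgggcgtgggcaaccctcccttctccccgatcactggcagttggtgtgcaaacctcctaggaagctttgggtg
Ms4a3, chr19:11640852-11641101, minus strand: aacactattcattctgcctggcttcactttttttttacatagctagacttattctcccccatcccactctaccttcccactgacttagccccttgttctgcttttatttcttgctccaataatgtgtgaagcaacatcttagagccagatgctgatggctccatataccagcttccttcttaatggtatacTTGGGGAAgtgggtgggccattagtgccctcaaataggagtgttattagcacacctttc

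RefSeq promoter entries matched 7 of the 8 members, with 2 starts for Srgn, and Prss57 had no entry. Motifs were counted on both strands in 300-base windows, from 250 bases before to 50 after the start. The ETS type letters GAGGAA were found in 5 of these 8 windows (Mpo, Elane, Prtn3, Ctsg and Ms4a3), against 28.3% of all 32851 windows. Within the printed part, GAGGAA began at base -95 from the start in Prtn3, -85 in Elane, -216 in Ctsg, and -247 and -224 in Mpo. The Ms4a3 match lay after the start. RUNX type letters were present in 3 of 8 member windows against 16.8% of all windows, and C/EBP type letters in 3 of 8 against 40.7%. The MYB type letters AACNG were present in 7 of 8 member windows, but also in 80.3% of all windows. The letters AAATCA, from the GFI1 motif, and the E box CACGTG were in 0 of 8 member windows, against 14.0% and 7.15% of all windows, and TATAAA was in 2 against 13.6%. The matches in capitals did not overlap one another. Such matches are letters in a window and were not tied to binding in these data.

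Of the members, 5 lay on chromosome 10, and 3 of them close together. On GRCm38 with GENCODE vM21, Prss57 (ENSMUSG00000020323) spans chr10:79781474-79790961 on the minus strand, Prtn3 (ENSMUSG00000057729) chr10:79874476-79883174 on the plus strand, and Elane (ENSMUSG00000020125) chr10:79886247-79888215 on the plus strand, 3073 bp from Prtn3. Srgn (ENSMUSG00000020077, chr10:62493833-62527451) and Lyz2 (ENSMUSG00000069516, chr10:117277331-117282321) are both on the minus strand of that chromosome. Mpo (ENSMUSG00000009350) spans chr11:87793581-87804413 on the plus strand, Ctsg (ENSMUSG00000040314) chr14:56099881-56102574 on the minus strand, and Ms4a3 (ENSMUSG00000024681) chr19:11629496-11640851 on the minus strand.

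Expression was deposited as TPM, a length-normalized share of the transcripts in a library, so levels can be compared between genes. The 12 libraries summed to between 914204 and 931697 TPM over the listed genes. TPM does not keep read numbers, so the depth behind each value is unknown, and with no spike-in recorded a gain or loss of all RNA in a cell leaves TPM as it was. In bulk samples, fewer cells of a type and less RNA per cell cannot be told apart. Gene-level TPM does not isolate the floxed exons: under DMSO, the T/F minus D/F log2 difference was 0.24 for Dnmt3a (limma, adjusted p = 0.953) and -0.30 for Tet2 (limma, adjusted p = 0.803). Kit, the receptor used for enrichment, ranged from 50.5 to 148.8 TPM over the DMSO samples and fell by 1.10 with CCS1477 over both genotypes (limma, adjusted p = 0.0101). Among T and B cell markers, 4 of 8 and 3 of 6 genes were in the table, and Cd3e, Cd3g, Trac, Cd79a and Ms4a1 were among those not listed in it. D/F replicate 2 stood apart from the other mice. Its DMSO sample had the highest stem and progenitor marker sum of the 6 DMSO samples, 951.8 TPM against 275.4 to 481.7, and the highest megakaryocyte marker sum, 236.6 against 46.2 to 68.3. Its mature neutrophil marker sum was 2898 TPM against 2589 to 10110.

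All 8 genes were lower with CCS1477 than with DMSO in 6 of 6 mice. The share of all genes lower in every mouse was not counted. In a limma fit that pairs the cells of each mouse, 25.9% of 15583 genes were lower at adjusted p below 0.05. Summed over the 8 genes, expression in D/F cells was 12370, 4369 and 9751 TPM with DMSO and 4970, 943 and 3797 TPM with CCS1477 in replicates 1, 2 and 3. In T/F cells the sum was 8446, 7690 and 5573 TPM with DMSO and 3830, 3177 and 2247 TPM with CCS1477. The treated share of the DMSO sum was 40.2, 21.6 and 38.9% in the D/F mice and 45.3, 41.3 and 40.3% in the T/F mice. The D/F mouse with the lowest sum under DMSO, replicate 2, also kept the smallest share. As a part of all TPM listed, the 8 genes took 0.471 to 1.33% of D/F DMSO libraries and 0.103 to 0.534% of D/F CCS1477 libraries, and 0.602 to 0.913% and 0.242 to 0.412% of the T/F libraries.

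**Figure D1:**
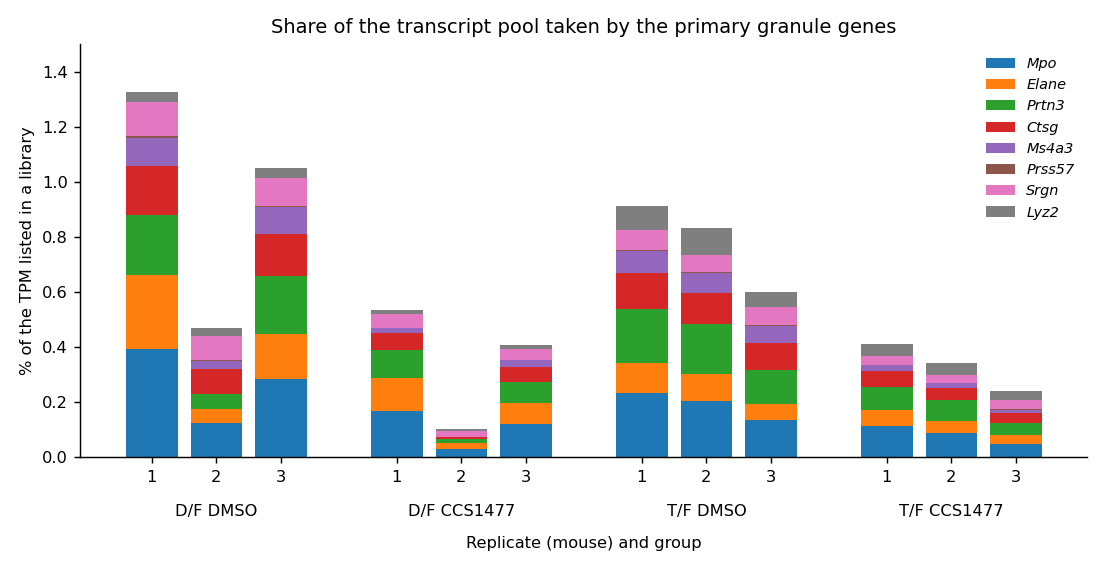
Percentage of the TPM listed in each of the 12 libraries that the 8 primary granule genes took, stacked by gene, with replicates (mice) 1 to 3 in each group on the horizontal axis. The stacks reach 1.33, 0.471 and 1.05% in D/F DMSO, 0.534, 0.103 and 0.408% in D/F CCS1477, 0.913, 0.831 and 0.602% in T/F DMSO and 0.412, 0.341 and 0.242% in T/F CCS1477.

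Differences were tested with limma on log2(TPM + 1), without pairing the mice, over all genes whose mean reached 1 TPM in either group, and a gene passed at an adjusted p below 0.05. Fold changes on this scale understate the change of low genes. In D/F cells 3 of 8 members passed, all lower and all more than 2-fold, against 6.51% of the 15501 genes tested that were lower and 4.61% that were lower by more than 2-fold. In T/F cells all 8 fell, against 17.6% of 15256 genes, and 6 of them by more than 2-fold, against 4.70%. Over both genotypes 7 of 8 fell, against 19.6% of 15583 genes, and all 7 by more than 2-fold, against 5.70%. The median log2 fold change of the members was -1.56 in D/F, -1.24 in T/F and -1.40 over both, where the medians of all genes were 0.06, 0.08 and 0.07. With the mouse as a block, which pairs the DMSO and CCS1477 cells of 1 animal, all 8 passed in D/F (18.0% of all genes were lower in that fit), in T/F (22.9%) and over both genotypes (25.9%). The number of calls changed when a mouse was left out. In D/F, 0 members passed without replicate 1 or without replicate 3, when 0 of all genes passed limma too. Without replicate 2, 7 members passed, and 3739 of all genes against 1805 with all mice. In T/F, 4 passed without replicate 1, 3 without replicate 2 and 8 without replicate 3. Of all genes 3473, 3192 and 5122 passed in these T/F fits, against 6620 with all mice. Over both genotypes 5 passed without D/F replicate 3, T/F replicate 2 or T/F replicate 3, and 6 without T/F replicate 1. Without D/F replicate 1 it was 7, and without D/F replicate 2 it was 8. Of all genes 7061 passed there with all mice and 8546 without D/F replicate 2, against 5660 to 6246 without any 1 of the other mice. With the block, 6 members passed in D/F without replicate 1 and 8 without replicate 2, where 1994 and 5015 of all genes passed. With the block and D/F replicate 3 left out, 0 members passed in D/F (adjusted p from 0.0514 to 0.0846). In that fit 0 of all 15545 genes passed too. Over both genotypes all 8 passed with the block when any 1 D/F mouse was left out, with 8499 to 9308 of all genes. The log2 fold change of each member stayed negative in each of these fits.

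Read by sample, the CCS1477 and DMSO values did not overlap for 5 of 8 members in D/F (Ctsg, Ms4a3, Prss57, Srgn and Lyz2), against 16.7% of genes whose CCS1477 samples all lay below DMSO. In T/F this held for 8 of 8, against 22.6%. The 3 D/F genes that overlapped, Mpo, Elane and Prtn3, did so where the DMSO value of replicate 2 lay below the CCS1477 values of replicates 1 and 3, except that for Mpo it lay below that of replicate 1 and above that of replicate 3.

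**Figure D2:**
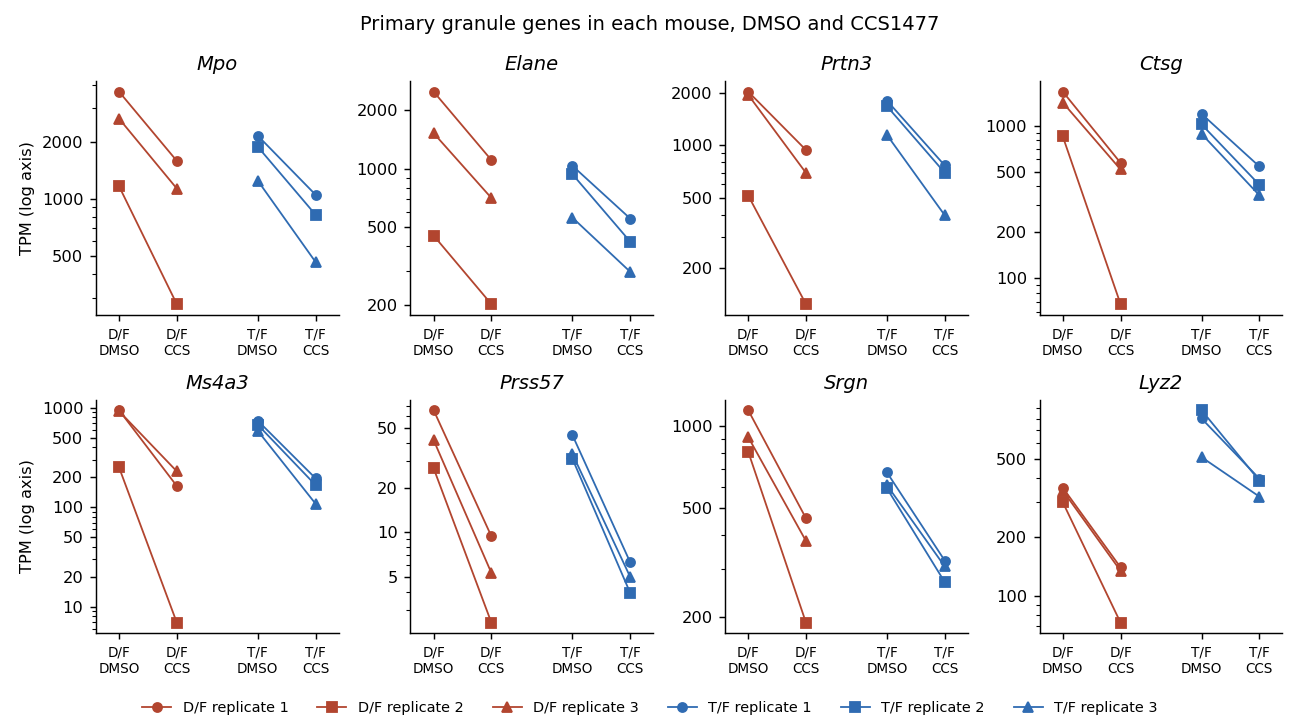
TPM of each primary granule gene (log axes) with DMSO and with CCS1477 (CCS), 1 line per mouse, D/F in red and T/F in blue. Every line descends from DMSO to CCS1477, and D/F replicate 2 ends lowest of the 6 mice in each panel.

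Mpo, the haem peroxidase, was the most abundant member by mean TPM in each of the 4 groups. It measured 3673, 1163 and 2646 TPM with DMSO and 1582, 277 and 1130 TPM with CCS1477 in D/F replicates 1, 2 and 3. In T/F cells it measured 2150, 1879 and 1244 TPM with DMSO and 1048, 822 and 463 TPM with CCS1477. The group means ordered as D/F DMSO (2494 ± 1262, SD, n = 3), T/F DMSO (1758 ± 465), D/F CCS1477 (996 ± 663) and T/F CCS1477 (778 ± 295), and neighbours in that order overlapped in range. Mpo fell by 1.22 on the log2 scale in T/F (SE 0.35, limma adjusted p = 0.0356). In D/F cells the log2 fold change was -1.50 (SE 0.73, adjusted p = 0.223), with an adjusted p of 0.0117 when limma took the mouse as a block and of 0.0393 without replicate 2 and without the block. Its treated share of DMSO ran from 23.8 to 48.8% over the 6 mice. At its highest Mpo was the 10th most abundant of all listed genes in a library.

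Elane, neutrophil elastase, varied widely among the D/F mice with DMSO, while the share that CCS1477 cells kept spanned a narrow range. D/F cells had 2480, 454 and 1520 TPM with DMSO and 1106, 202 and 707 TPM with CCS1477. T/F cells had 1035, 937 and 561 TPM with DMSO and 555, 423 and 296 TPM with CCS1477. The CCS1477 cells kept 44.5 to 53.6% of the DMSO level. Ranked by this share within a mouse, Elane was 7th or 8th of the 8 genes, the least reduced or next to it, in each of the 6 mice. Elane fell by 0.99 in T/F (SE 0.32, limma adjusted p = 0.0488), a call lost with a pseudocount of 0.1 TPM (0.0584), without the filter (0.0507) and after rescaling to the median gene (0.052). The D/F value was -1.14 (SE 0.82, adjusted p = 0.395) and the value over both genotypes -1.07 (adjusted p = 0.0831). In limma fits with the mouse as a block these were adjusted p = 0.00504 and 1.61e-05. It was the only member that did not pass over both genotypes without the block.

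Prtn3, proteinase 3, and Ctsg, cathepsin G, had lower means with CCS1477 than with DMSO in both genotypes. Prtn3 measured 2026, 517 and 1944 TPM with DMSO and 941, 124 and 696 TPM with CCS1477 in D/F cells, and 1801, 1674 and 1147 TPM against 768, 698 and 399 TPM in T/F cells. Ctsg measured 1670, 849 and 1417 TPM with DMSO and 570, 67.6 and 516 TPM with CCS1477 in D/F cells, and 1195, 1020 and 884 TPM against 540, 410 and 350 TPM in T/F cells. The T/F groups did not overlap for either gene, while in D/F cells Ctsg did not overlap and Prtn3 did. Prtn3 fell by 1.34 in T/F (SE 0.30, limma adjusted p = 0.0149), and its D/F log2 fold change was -1.55 (SE 0.89, adjusted p = 0.292, or 0.0108 with the mouse as a block). Ctsg fell by 1.26 in T/F (SE 0.19, limma adjusted p = 0.00385), and its D/F value was -2.21 (SE 0.83, adjusted p = 0.132, or 0.0318 with the block). Ctsg in D/F replicate 2 kept 7.96% of its DMSO level, where the highest share was 45.2%. Without that mouse the D/F log2 fold changes were -1.29 for Prtn3 (adjusted p = 0.0213) and -1.50 for Ctsg (adjusted p = 0.0135).

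The largest changes among the members were those of Prss57 and Ms4a3. Prss57, the granule protease of lowest level here, measured 66.1, 26.9 and 41.7 TPM with DMSO and 9.40, 2.48 and 5.34 TPM with CCS1477 in D/F cells, and 45.1, 31.3 and 33.7 TPM against 6.30, 3.93 and 5.03 TPM in T/F cells. No CCS1477 sample reached any DMSO sample, and 9.20 to 14.9% of the DMSO level remained. Prss57 fell by 2.82 in D/F (SE 0.48, limma adjusted p = 0.0197), by 2.63 in T/F (SE 0.19, adjusted p = 0.000544), and over both genotypes it fell by 2.72 (adjusted p = 1.86e-05). Only 0.184% of tested genes had a lower log2 fold change in T/F and 0.355% in D/F. It was the most reduced member in 5 of 6 mice.

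Ms4a3, the marker of granulocyte and monocyte progenitors, measured 946, 251 and 925 TPM with DMSO and 163, 6.87 and 229 TPM with CCS1477 in D/F cells. In T/F cells it measured 741, 674 and 586 TPM with DMSO and 195, 167 and 108 TPM with CCS1477. It kept 2.74 to 26.3% of the DMSO level, with the 2.74% again in D/F replicate 2, where it was the most reduced member. Ms4a3 fell by 2.12 in T/F (SE 0.23, limma adjusted p = 0.0014). The D/F log2 fold change was -3.18 (SE 1.32, adjusted p = 0.164, or 0.025 with the mouse as a block), and without replicate 2 it was -2.27 (adjusted p = 0.0125). Over both genotypes it fell by 2.65 (adjusted p = 0.0118).

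Srgn, the proteoglycan core that holds the proteases, is made by many blood cell types besides granulocyte precursors. It measured 1148, 808 and 914 TPM with DMSO and 460, 190 and 379 TPM with CCS1477 in D/F cells, and 678, 592 and 609 TPM against 321, 268 and 306 TPM in T/F cells. Srgn fell by 1.56 in D/F (SE 0.35, limma adjusted p = 0.0385) and by 1.07 in T/F (SE 0.10, adjusted p = 0.000882). The 2 treatments did not overlap in either genotype.

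Lyz2, lysozyme, was the member whose genotypes stood farthest apart. It measured 356, 300 and 344 TPM with DMSO and 140, 73.1 and 134 TPM with CCS1477 in D/F cells, and 801, 882 and 509 TPM against 396, 386 and 320 TPM in T/F cells. The 4 groups were arranged without overlap except that T/F CCS1477 and D/F DMSO shared their range. Lyz2 fell by 1.57 in D/F (SE 0.28, limma adjusted p = 0.0213) and by 0.96 in T/F (SE 0.22, adjusted p = 0.0172). Under DMSO, the T/F mean was 2.19-fold the D/F mean, a log2 difference of 1.10 (SE 0.23, limma adjusted p = 0.412). Under CCS1477 the ratio was 3.18 and the log2 difference 1.71 (SE 0.27, adjusted p = 0.135), which passed without D/F replicate 2 (1.41, adjusted p = 0.0449) and in the fit with 4 groups (adjusted p = 0.0298). Between these treated cells genotype cannot be told apart from dose, 2 µM in T/F and 4 µM in D/F. The near-identical copy Lyz1 was not listed in the table, so how reads were shared between the copies is uncertain.

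**Figure D3:**
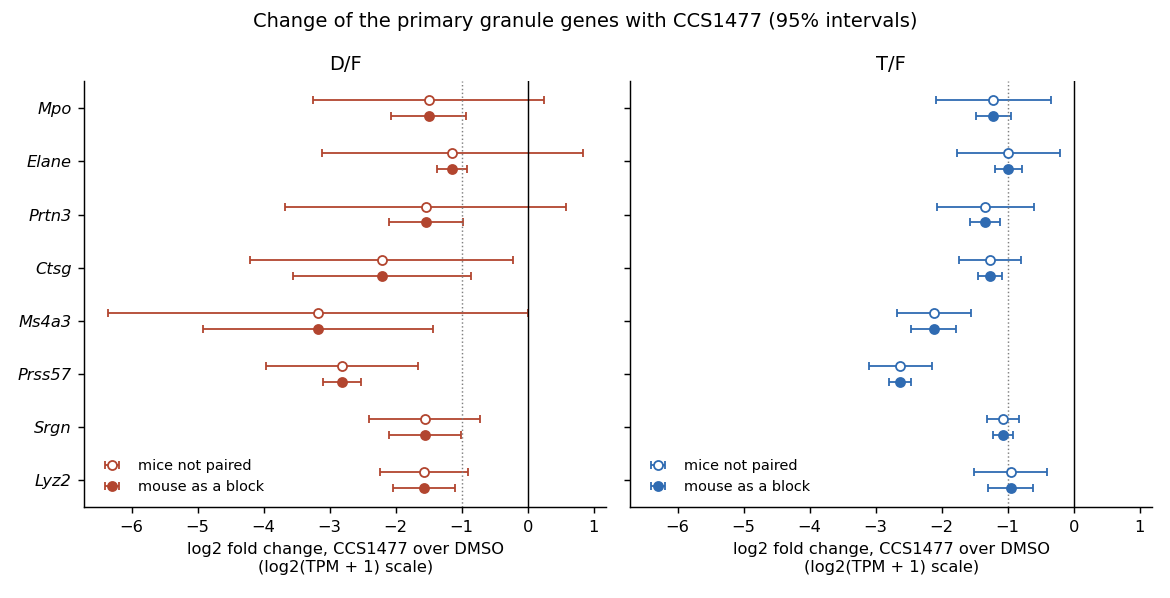
Log2 fold change of CCS1477 over DMSO for each gene in D/F (left) and T/F (right), on the log2(TPM + 1) scale with 95% intervals from limma, open circles without pairing and filled circles with the mouse as a block. The dotted line marks a 2-fold decrease, and the D/F intervals without pairing reach above 0 for Mpo, Elane and Prtn3.

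With all mice in the fit of the 2 groups compared, no member passed a test between the genotypes. Under DMSO, 0 of 8 members passed, against 0.0328% of 15265 genes, and under CCS1477 0 of 8, against 0.0329% of 15199 genes. The genotypes did not overlap for Srgn and Lyz2 under DMSO, against 12.6% of genes in either direction, and for Lyz2 under CCS1477, against 20.3%. Srgn was higher in D/F DMSO cells, with a T/F minus D/F log2 difference of -0.60 (SE 0.16, limma adjusted p = 0.583), and Lyz2 was higher in T/F. The other 6 genes overlapped under DMSO, with adjusted p from 0.944 to 0.984. The T/F minus D/F difference in response was positive for all 8 members, from 0.16 for Elane to 1.06 for Ms4a3, with limma adjusted p = 1 for each and 0% of 15583 genes passing. Without D/F replicate 2 these differences shrank, from 1.06 to 0.15 for Ms4a3, from 0.95 to 0.24 for Ctsg, from 0.62 to 0.39 for Lyz2, from 0.49 to 0.22 for Srgn, from 0.29 to 0.003 for Mpo and from 0.19 to 0.09 for Prss57. Elane went from 0.16 to 0.15, and Prtn3 changed sign, from 0.21 to -0.04. At an unadjusted p under 0.05 there were 659 genes, none of them a member. The 95% intervals of this difference ran from -0.21 to 1.44 for Lyz2, from -0.38 to 1.35 for Srgn and from -2.27 to 4.39 for Ms4a3, so differences of more than 2-fold between the responses lay within all of these intervals.

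The 8 genes varied together across samples. Over the 12 samples, log2(TPM + 1) of the 21 pairs without Lyz2 had Pearson r from 0.755 to 0.984, the highest for Ctsg and Ms4a3. The 7 pairs with Lyz2 had r from 0.366 to 0.756. After subtracting the group means, which leaves differences between mice, the ranges were 0.771 to 0.981 and 0.624 to 0.862. These correlations describe 12 libraries of 6 mice whose treated and untreated cells share an animal. Genes outside the list most like its mean profile, among 9753 genes averaging at least 10 TPM, were Cd24a (r = 0.990), Trem3 (0.988), Anxa3 (0.986), Cst7 (0.981), Tmem97 (0.979) and Mfsd13a (0.976). All 6 fell over both genotypes, by 0.61 (Mfsd13a) to 2.05 (Trem3) on the log2 scale. Their fall follows from the choice, because the profile they were matched to is lower with CCS1477. After subtracting the group means, their r ranged from 0.943 (Tmem97) to 0.995 (Cd24a). These values also follow in part from the choice, because differences between mice entered the r by which the genes were picked.

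Transcription factors of granule gene expression were examined as a list of 15 genes. Of these, 8 fell and 1 rose over both genotypes, with a median log2 fold change of -0.70, beside 19.6% lower and a median of 0.07 over all genes. In D/F alone 5 fell and 0 rose, and in T/F 6 fell and 1 rose, beside 6.51% and 17.6% of all genes lower. This list and those below were chosen with earlier results of these data known, so their counts are descriptive. Gfi1, a repressor needed for neutrophil differentiation, averaged 78.3 ± 36.1 TPM with DMSO and 6.28 ± 1.45 TPM with CCS1477 in D/F cells, and 56.5 ± 3.58 against 8.08 ± 1.38 TPM in T/F cells (SD, n = 3). Over both genotypes it fell by 3.01 (limma adjusted p = 4.15e-06). Myb, a progenitor factor, averaged 345.5 TPM against 68.1 in D/F and 239.3 against 78.7 in T/F, and fell by 1.97 (adjusted p = 4.91e-06). Cebpa and Cebpe, the C/EBP factors of early and later granulocyte development, fell by 1.20 (adjusted p = 1.02e-06) and 1.49 (adjusted p = 0.00996). Runx1 fell by 1.55 (adjusted p = 0.000422) and Spi1, which encodes PU.1, by 0.90 (adjusted p = 0.00205). By genotype, Runx1 fell by 2.23 in D/F and 0.88 in T/F, and Spi1 by 1.38 and 0.42, at the unlike doses. The factor that rose was Klf5 (1.19, adjusted p = 0.000858), named after its value was seen.

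The proteases need partners to become active and to be held in check. Of 12 measured genes of protease activation and inhibition, 4 fell and 1 rose over both genotypes, with a median of -0.68. Over all genes 19.6% fell and 4014 of 15583 rose. Ctsc, whose product cathepsin C trims the granule proteases to their active form, fell by 0.95 (limma adjusted p = 0.0355). Serpinb1a, an inhibitor of elastase, proteinase 3 and cathepsin G, fell by 1.81 (adjusted p = 2.21e-06), and Cst7, an inhibitor of cathepsin C, by 1.33 (adjusted p = 0.00485). Serpinb6b had a log2 fold change of -1.04 (adjusted p = 0.0883). The others that passed, named after their values were seen, were Serpinb10, which fell by 1.37 (adjusted p = 0.000143), and Serpinb6a, which rose by 0.60 (adjusted p = 0.0367). Serpinb10 was barely expressed, with a mean of 1.05 TPM over the 12 samples.

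Genes of granule packaging and secretion split, with 14 of 29 lower over both genotypes, 4 higher and a median of -0.35. For this list and the other cargo below, the share over all genes was 19.6% lower, with 4014 of 15583 higher. Rab44 fell by 2.30 (limma adjusted p = 1.97e-06), Rab27a, a GTPase of granule docking, by 1.32 (adjusted p = 2.88e-05), Chst11, a chondroitin sulfotransferase, by 1.28 (adjusted p = 1.63e-06), and Nbeal2 by 1.04 (adjusted p = 0.00119). The list holds 10 genes that build chondroitin sulfate, the sugar chain carried by serglycin, and of these 7 fell and 1, Xylt2, rose by 0.40 (adjusted p = 0.00557). This subset was counted after its values were seen. The 4 genes of the list that rose were Igf2r, Stx11, Xylt2 and Ap3d1, by 0.32 to 0.72. The other primary granule cargo, mostly lysosomal hydrolases that macrophages and other cells also make, had 6 lower and 7 higher of 21 with a median of -0.15. Fuca1, which encodes lysosomal fucosidase, rose by 0.97 (adjusted p = 9.34e-05). Gusb and Ctsz, which encode beta-glucuronidase and cathepsin Z, fell by 0.91 (adjusted p = 0.000778) and 0.87 (adjusted p = 0.00818).

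Myeloperoxidase requires haem, and 14 genes of haem synthesis and protein folding gave 1 lower, 4 higher and a median of -0.08 over both genotypes. Over all genes 19.6% were lower and 4014 of 15583 higher, so the number that rose is near that of all genes. The 1 gene that fell was Alas1, the first and rate-limiting enzyme of haem synthesis in most cells. Alas1 averaged 541 ± 348 TPM with DMSO and 91.8 ± 32.3 TPM with CCS1477 in D/F cells, and 446 ± 55.3 against 107 ± 3.55 TPM in T/F cells. It fell by 2.21 over both genotypes (limma adjusted p = 0.000108). The later enzymes Fech, Urod and Uros rose by 0.84 (adjusted p = 6.76e-06), 0.70 (adjusted p = 0.000524) and 0.74 (adjusted p = 0.00352).

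Of 20 other genes of the promyelocyte stage, 15 fell and 0 rose over both genotypes (7 fell in D/F and 13 in T/F), and the median log2 fold change was -1.66. Clec12a, Nkg7, F13a1 and Igsf6 had the largest changes, with log2 fold changes of -2.93, -2.51, -2.29 and -2.13. F13a1 did not pass in D/F alone (limma adjusted p = 0.0783), where its DMSO values were 53.7, 10.7 and 10.4 TPM. The mature neutrophil list, which holds secondary and tertiary granule genes, had 3 of 11 lower, 0 higher and a median of -0.43. These are calls without pairing the mice, and 19.6% of all genes fell in that fit. The mature neutrophil genes that passed were Retnlg (-1.89, limma adjusted p = 0.00292), Ly6g (-1.50, adjusted p = 0.0134) and Cxcr2 (-0.34, adjusted p = 0.0279). For the secondary granule genes Ltf and Ngp the values were -0.15 (adjusted p = 0.901) and 0.13 (adjusted p = 0.873), and for S100a8 and S100a9 they were -0.17 (adjusted p = 0.797) and -0.03 (adjusted p = 0.97). The granule genes Camp, Mmp8, Lcn2 and Mmp9 had -1.51 (adjusted p = 0.067), -1.79 (adjusted p = 0.0647), -0.43 (adjusted p = 0.464) and -0.59 (adjusted p = 0.45), and Mmp8 passed in T/F alone (-1.64, adjusted p = 0.048). Camp, Mmp8, Lcn2 and Mmp9 were each lower with CCS1477 than with DMSO in every mouse, as the members were, and the share of all genes with this pattern was not counted. Fits with the mouse as a block are not given for this list. Marker lists of other cell types moved beside the members: 7 of 9 monocyte and macrophage markers, 5 of 5 mast cell and basophil markers, 5 of 6 eosinophil markers and 3 of 8 stem and progenitor markers fell, and 0 of any of these rose. For these marker counts too, the share over all genes was 19.6% lower, with 4014 of 15583 higher. The mast cell and basophil sums ranged from 102.6 to 199.4 TPM in D/F DMSO and from 19.1 to 45.5 in D/F CCS1477, and the monocyte and macrophage sums from 574.5 to 1408 and from 188.2 to 607.8. No T, NK or erythroid marker passed (0 of 4, 0 of 2 and 0 of 6 measured). Of B cell markers 1 of 3 fell, and of megakaryocyte markers 1 of 5, which is near the share over all genes. The mast cell markers Fcer1a, Tpsb2, Tpsab1, Mcpt4 and Cma1 were not listed in the table. In T/F cells the mast and basophil sums and the monocyte sums ranged from 45.4 to 88.7 TPM with DMSO and 19.4 to 38.9 with CCS1477, and from 635.1 to 839.4 and from 234.1 to 338.9. Their part in the change of the granule genes was not tested.

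**Figure D4:**
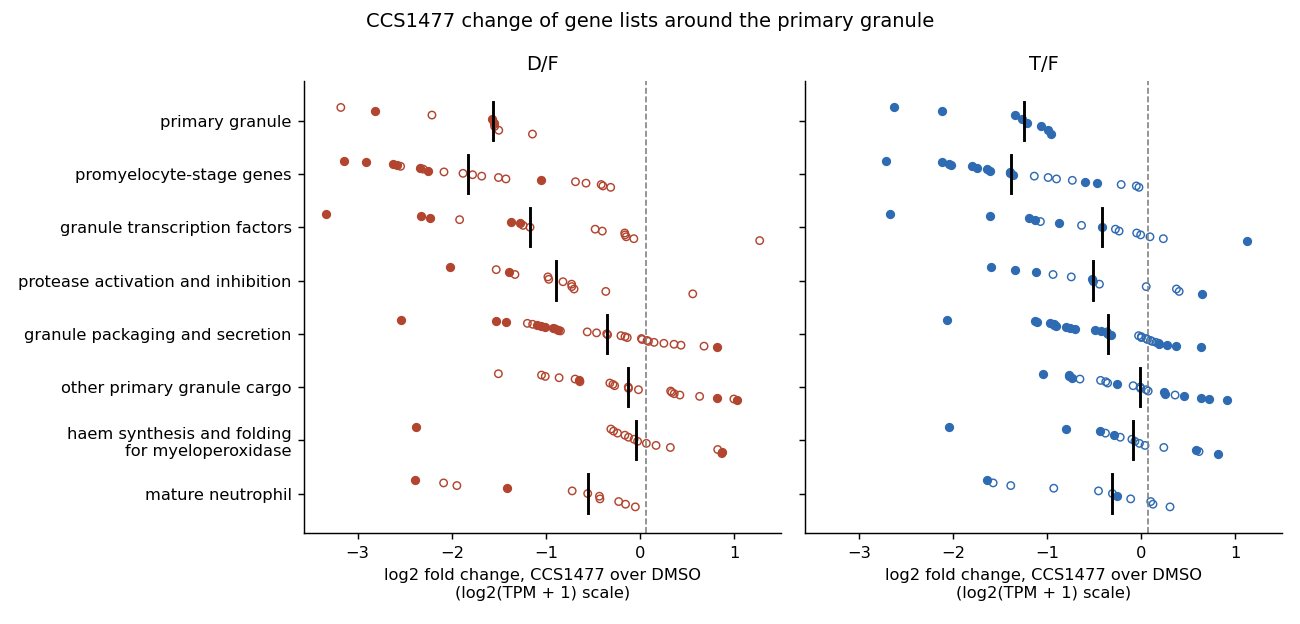
Log2 fold change of CCS1477 over DMSO on the log2(TPM + 1) scale for the genes of 8 lists in D/F (left) and T/F (right), with 1 circle per gene, filled where it passed limma at adjusted p below 0.05, a black bar at the list's median and a dashed line at the median of all genes. The primary granule medians are -1.56 and -1.24, and those of the mature neutrophil list are -0.56 and -0.31.

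The genes beside the members on the chromosome were counted in the same fits. The 3 nearest listed protein-coding genes on each side, with any that overlap a member and not counting members, made 40 genes, of which 16 fell and 12 rose over both genotypes, with a median of -0.15, and 9 fell by more than 2-fold. Over all genes 19.6% fell, 5.70% by more than 2-fold, and 4014 of 15583 rose. Lpo, which encodes lactoperoxidase and lies 2015 bp from Mpo, averaged 7.18 TPM with DMSO and 0.108 with CCS1477 in D/F cells, and fell by 2.39 over both genotypes (limma adjusted p = 9.25e-06). The largest fall was that of Gzmb, 156264 bp from Ctsg (-2.77, adjusted p = 8.86e-06). Ms4a2, 5777 bp from Ms4a3, fell by 2.24 (adjusted p = 2.35e-05). Ms4a6d and Ddx21 fell by 1.65 (adjusted p = 0.000914) and 1.27 (adjusted p = 1.51e-05). Mcpt8, 14608 bp from Ctsg, fell by 1.15 (adjusted p = 0.00328), and Palm, 2611 bp from Prss57, by 1.15 (adjusted p = 0.000287). Gzmb, Ms4a2 and Mcpt8 are also counted among the mast cell and basophil markers above. The largest rises were those of Khnyn, 201106 bp from Ctsg (0.96, adjusted p = 0.000369), and Kif1bp, 11175 bp from Srgn (0.82, adjusted p = 1.63e-05). Cenpj, 424187 bp from Ctsg, rose by 0.82 (adjusted p = 7.74e-06). No rule was set for which neighbours are named. In the Prtn3 and Elane cluster, Cfd fell by 0.74 (adjusted p = 0.0176), Med16 rose by 0.25 (adjusted p = 0.0208) and Ptbp1 had -0.30 (adjusted p = 0.105). Cfd was barely expressed, with means of 1.42 TPM with DMSO and 0.214 with CCS1477 in D/F cells. Plppr3 on the minus strand overlaps the Prtn3 gene model and fell by 1.70 (adjusted p = 2.85e-05), and Fstl3 on the plus strand overlaps Prss57 and had 0.27 (adjusted p = 0.33). The labels name a stranded kit but the strand setting of the counting is not given in the sources used here, so values in these overlaps are uncertain.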

How the data were processed

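RNA-seq of c-Kit+ leukemic splenocytes was deposited by the authors as 1 table of TPM per Ensembl gene. The submitters' processing notes name kallisto and mm10, and the study's methods name AltAnalyze. The kallisto version, the annotation and the strand setting are not given in the sources used here. Each gene reached at least 2.00 TPM in some library, so lower genes were absent. TPM is scaled within a library, so a fall in abundant genes raises the others.

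Groups came from genotype and treatment labels. limma 3.58.1 (R 4.3.3; Python 3.11.15 for the rest) was run on log2(TPM + 1) without pairing, keeping genes whose mean reached 1 TPM in 1 or more of the groups, and p-values were adjusted over all genes by Benjamini-Hochberg. The fits without pairing were run on simulated data that had no shared mouse effect, so that run does not cover the pairing present here. The labels give each sample's mouse, and same-mouse cells shared deviations from group means in every pair (r from 0.354 to 0.669, against at most 0.141 between mice). The mouse as a block, pseudocount 0.1, a 5 TPM filter or no filter, other scalings, a fit with 4 groups and leaving out each mouse were alternatives.

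All 8 members are named in each comparison. Context lists are given as counts, naming up to 4 genes a list with the largest change over both genotypes at a mean of at least 5 TPM, plus Cebpa, Cebpe, Gfi1, Spi1, Runx1, Myb, Ctsc and Serpinb1a. A gene of the other primary granule cargo that met this rule is not reported here. Some lists share a gene, which is counted in both. Igf2r is in the packaging list and in the other cargo. Prss34 is in the other cargo and among mast cell and basophil markers. Cd34 is in the promyelocyte list and among stem and progenitor markers. The members and lists were chosen with earlier results of these data known. The mature neutrophil genes and the sole genes that rose in a list were named after their values were seen. The study's own table of differentially expressed genes was not used here.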

Additional observations from a re-analysis of the deposited data

How the results depend on the processing

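Each member's CCS1477 change was negative in D/F, in T/F and over both genotypes under every alternative run. Over all genes, the number that passed in D/F was 1805, against 2839 after quantile normalization, 4940 in the fit with 4 groups and 6098 with the replicate block, and from 0 to 3739 with 1 mouse left out (0 without replicate 1 or 3). With quantile normalization the share of lower genes among those that passed in D/F moved from 55.9 to 45.4%. With the replicate block and 1 D/F mouse left out, an alternative chosen after seeing the data, 1994, 5015 and 0 genes passed without replicates 1, 2 and 3. In T/F 6620 passed, against 3713 in the fit with 4 groups, 8249 with the replicate block, and 3192 to 5122 with 1 mouse left out. Over both genotypes 7061 passed, 9403 with the replicate block and 5660 to 8546 with 1 mouse left out. The fit with 4 groups called 5 members in D/F, adding Ctsg (adjusted p = 0.0284) and Ms4a3 (0.0427), and 3 in T/F (Prss57, Srgn and Lyz2). A pseudocount of 0.1 TPM left 2 in D/F, with Srgn at 0.0506.

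The replicate block lowered the adjusted p for all 8 members in D/F. In T/F it lowered it for 5 and raised it for Ms4a3 (0.00207), Prss57 (0.00182) and Srgn (0.00189), which still passed. It changed no member's call in the genotype difference of the response, which passed for 0 genes in each alternative. Under DMSO 5 genes differed by genotype, against 9 with the 5 TPM filter, 9 after quantile normalization, 20 in the fit with 4 groups and 4 to 9 with 1 mouse left out. Under CCS1477 it was 5, against 10 with trend and robust eBayes, 71 with 4 groups and 2 to 27 with 1 mouse left out. No paired analysis of the genotype comparisons was possible because each mouse has 1 genotype.

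Log2 differences between the genotypes that changed sign, none of them called, did so mostly with 1 mouse left out. The range over the mice left out was -0.043 to 0.429 for Prtn3 in the response. Under DMSO it was -0.392 to 0.592 for Prtn3, -0.494 to 0.461 for Ms4a3 and -0.523 to 0.109 for Prss57. Under CCS1477 it was -0.86 to 0.394 for Mpo, -1.103 to 0.121 for Elane, -0.436 to 1.021 for Prtn3, -0.347 to 1.182 for Ctsg, -0.344 to 2.091 for Ms4a3, -0.434 to 0.357 for Prss57 and -0.487 to 0.148 for Srgn. Prss57 was also 0.051 after quantile normalization. Leaving out D/F replicate 2 gave the negative values of Prtn3, Ctsg and Ms4a3. The cause was not tested. With 3 mice a group and unknown depth, precision rests on the spread between mice alone.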
